A study of Mus musculus with 6 samples.

Results

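The interleukin 1 receptors Il1r1 and Il1r2 and the interleukin 1 receptor antagonist Il1rn were examined in mouse T cells cultured toward the Th17 fate without and with a functional copy of Irf4. They were taken as the probes that carry 1 of these 3 symbols in the authors' deposited table, which gave 5 of 22749 probes on the array and 3 of 688 named genes. Il1r1 had 1 probe, Il1r2 had 2 and Il1rn had 2. Expression was measured with 2-colour Agilent arrays in 3 samples of the genotype IRF4 -/- (Irf4 null) and 3 of the genotype IRF4 +/- (Irf4 heterozygous), all on the C57BL/6J background, so the comparison group keeps 1 intact allele and is not wild type. All 6 samples were naive CD4+ cells of the spleen that were CD62L hi and CD25 -, grown for 42 h on plate-bound anti-CD3 with anti-CD28, IL-6 and IL-23 at 20 ng/ml each, human TGF-beta at 1 ng/ml, and antibodies against IL-4 and interferon gamma. Interleukin 1 is not among the cytokines that the labels list for the medium. Each sample was hybridised in Cy5 against a Cy3 reference pool of RNA from 11 tissues, and every level given here is the log2 ratio of sample to that pool. The series design calls the 3 samples of each genotype biological replicates. The age of the mice, the cells in which Irf4 was deleted and the animals behind each replicate are not known here. The p-values therefore cover only the variation among the 6 samples.

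Interleukin 1 alpha and beta signal through the receptor encoded by Il1r1, which recruits an accessory chain and then MyD88, IRAK kinases and TRAF6 to activate NF-kappaB and MAP kinases. Il1r2 encodes a decoy receptor that binds interleukin 1 but lacks the intracellular signalling domain, and Il1rn encodes a secreted or intracellular ligand-like protein that occupies the signalling receptor without activating it. In mouse T cells, signalling through the product of Il1r1 is known to promote Th17 differentiation together with IL-6 and IL-23.

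The antagonist fell in Irf4 null relative to heterozygous cells at 1 of its 2 probes, and its other probe had a negative log2 fold change that did not pass. The decoy receptor had negative and the signalling receptor positive log2 fold changes of null over heterozygous cells that did not pass the threshold. Of the 5 probes, 1 passed an adjusted p of 0.05 in limma's test over all probes, the Il1rn probe A_52_P431159, where 3.19% of all probes passed in either direction, 1.56% with a lower and 1.63% with a higher value in null cells. Symbols were available only among the 828 probes that the authors had listed, of which 12 carried none. These were listed for a difference of over 2-fold with an unadjusted p-value under 0.05 between these same samples. Of the 828, 58.5% passed the threshold. The presence, size and direction of a difference at these 5 probes were therefore partly set by how they came to be named, and nothing is read from their share.

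Gene names were matched to RefSeq start sites of the build GRCm38.p6, and all 3 genes had at least 1 window of 250 bases before to 50 bases after a start, 6 windows in all. Il1r2 and Il1r1 are next to each other among the protein-coding genes of chromosome 1, and Il1rn lies on chromosome 2 beside Il1f10, another gene of the interleukin 1 family. Of these windows, 3 are shown because the 2 Il1rn probes differed in the size of their change while Il1rn has start sites at separate places, and because Il1r2 had the same sign as Il1rn. They lie at chr2:24336610-24336909 and chr2:24345121-24345420 for Il1rn and chr1:40085843-40086142 for Il1r2, each on the + strand. Capitals mark an AP-1 motif (TGANTCA) and a kappaB motif (GGGA, any 4 bases, CC), the only matches found in any of the 6 windows.
Il1rn, first start: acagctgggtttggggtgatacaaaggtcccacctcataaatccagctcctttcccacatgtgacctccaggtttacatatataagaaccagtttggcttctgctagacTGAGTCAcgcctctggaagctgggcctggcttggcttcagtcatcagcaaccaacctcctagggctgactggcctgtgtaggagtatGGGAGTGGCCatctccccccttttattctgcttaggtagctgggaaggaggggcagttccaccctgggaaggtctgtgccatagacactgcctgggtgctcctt
Il1rn, last start: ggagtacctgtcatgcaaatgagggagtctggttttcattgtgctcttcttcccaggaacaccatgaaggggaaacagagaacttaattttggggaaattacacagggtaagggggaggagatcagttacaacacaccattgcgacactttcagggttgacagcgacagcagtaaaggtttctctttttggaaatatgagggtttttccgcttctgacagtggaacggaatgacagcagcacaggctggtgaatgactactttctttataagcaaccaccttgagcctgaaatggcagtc
Il1r2: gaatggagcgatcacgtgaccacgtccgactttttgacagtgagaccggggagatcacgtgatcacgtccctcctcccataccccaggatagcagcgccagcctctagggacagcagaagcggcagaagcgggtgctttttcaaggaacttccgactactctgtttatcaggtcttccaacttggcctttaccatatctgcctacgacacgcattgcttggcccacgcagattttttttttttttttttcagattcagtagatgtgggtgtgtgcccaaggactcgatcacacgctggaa

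IRF4 is known to bind DNA together with BATF and JUN proteins at composite AP-1 and IRF elements in Th17 cells, and with PU.1 family proteins at composite ETS and IRF elements in other cells. Both strands of each window were searched for 6 motifs. The AP-1 letters began at position -141 relative to the first Il1rn start, and 7.81% of 32851 windows of the same length held this motif. The kappaB letters began at position -54 relative to the same start, and 20.7% of windows held them. The interferon-stimulated response element (GAAA, any 2 bases, GAAA) was held by 3.44% of windows, and the ETS and IRF element (GGAA, any 2 bases, GAAA) by 2.72%. The AP-1 and IRF elements, with GAAA directly before TGANTCA or with TTTC and any 4 bases before it, were held by 0.125% and 0.119%. None of these 4 had a match in the 6 windows. The spaced and unspaced AP-1 and IRF elements contain the AP-1 motif. A match is a run of letters and was not tested for binding.

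The targeted gene was lower in every null sample. The log2 ratio of Irf4 was 0.62, 0.65 and 0.73 in null cells, against 3.02, 2.85 and 2.93 in heterozygous cells. Its log2 fold change of -2.26 (SE 0.12) had a limma adjusted p of 0.00217, and where its probe lies relative to the deleted part of the gene is not known here. Array medians lay between -0.03 and 0.06, and 0.673% to 5.28% of the ratios on an array were exactly 0. Null replicate 1 had the most such ratios, and it correlated less with the other null arrays (0.936 and 0.915 across probes) than they did with each other (0.961). The median SD within a group over all probes was 0.26 in null and 0.19 in heterozygous cells.

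Il1rn, the antagonist, had the largest difference among the 5 probes. Probe A_52_P431159 had log2 ratios of -3.36, -2.94 and -2.04 in null cells, against 1.76, 1.49 and 2.34 in heterozygous cells. All 3 null values lay below the reference pool and all 3 heterozygous values above it, with no overlap. The means were -2.78 ± 0.68 in null and 1.86 ± 0.44 in heterozygous cells (SD, n = 3 each), which correspond to 0.146 and 3.64 times the reference. Il1rn fell 25.0-fold at this probe (limma adjusted p = 0.00682). Its log2 fold change was -4.64, with an SE of 0.39 and a 95% confidence interval from -5.59 to -3.69. This was the 5th largest negative log2 fold change of the 22749 probes. It passed whichever of the 6 arrays was left out, with adjusted p-values of 0.0131 to 0.0481.

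The other Il1rn probe had a smaller difference. Probe A_51_P307166 had log2 ratios of exactly 0, 0.25 and 1.02 in null cells, against 1.27, 2.32 and 2.44 in heterozygous cells. The groups did not overlap, but the highest null value lay close to the lowest heterozygous value. The means were 0.42 ± 0.53 in null and 2.01 ± 0.64 in heterozygous cells (SD, n = 3 each). The log2 fold change was -1.59, with an SE of 0.40 and a 95% confidence interval from -2.57 to -0.61, and it did not pass (limma adjusted p = 0.103). When both Il1rn probes were averaged, the log2 fold change was -3.12 with a limma adjusted p of 0.0193.

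The 2 Il1rn probes were then set against each other within each array, a comparison chosen after their values were seen. Probe A_52_P431159 minus probe A_51_P307166 was -3.36, -3.19 and -3.05 in null cells, against 0.49, -0.84 and -0.09 in heterozygous cells. The value of null replicate 1 uses the ratio of exactly 0 at probe A_51_P307166. The mean difference was -3.20 ± 0.16 in null and -0.15 ± 0.66 in heterozygous cells (SD, n = 3 each), so the changes at the 2 probes differed by -3.05 on the log2 scale. The two-sided exact permutation test gave p = 0.1, which is the smallest p that 3 samples against 3 allow, and 0.125 after Benjamini-Hochberg adjustment over the 5 within-array differences computed. The exons that each probe reads are not known here, and Il1rn gives rise to transcripts with alternative first exons. Which probe follows the level of Il1rn more closely was not tested.

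Il1r2, the decoy receptor, had negative log2 fold changes at both probes, and neither passed. Probe A_51_P470079 had log2 ratios of 2.11, 3.35 and 3.64 in null cells, against 4.90, 4.54 and 4.54 in heterozygous cells. Every sample lay above the reference pool, and the 3 null values spread more widely than the 3 heterozygous ones without reaching them. The means were 3.04 ± 0.81 in null and 4.66 ± 0.21 in heterozygous cells (SD, n = 3 each), which are 8.20 and 25.3 times the reference. The log2 fold change was -1.63, with an SE of 0.40 and a 95% confidence interval from -2.61 to -0.64 (limma adjusted p = 0.0987).

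Probe A_52_P417890 of Il1r2 had log2 ratios of exactly 0, exactly 0 and 2.36 in null cells, against 2.82, 3.58 and 3.37 in heterozygous cells. Null replicate 3 lay near the heterozygous samples, and the other null samples did not. The means were 0.79 ± 1.36 in null and 3.26 ± 0.39 in heterozygous cells (SD, n = 3 each), and the log2 fold change was -2.47, with an SE of 0.67 and a 95% confidence interval from -4.10 to -0.84 (limma adjusted p = 0.116). This value rests on how null replicates 1 and 2 are read. Without null replicate 3 the log2 fold change was -3.26 (adjusted p = 0.0227). The null group then held only the 2 ratios of exactly 0, which have no spread, so nothing is read from this p-value. With ratios of exactly 0 treated as missing, only null replicate 3 was left in the null group, and the log2 fold change was -0.90. An exact 0 may stand for a ratio that was not measured. Of the ratios at the 5 probes, 3 in null and 0 in heterozygous cells were exactly 0. Within arrays, the changes at the 2 Il1r2 probes differed by -0.85 on the log2 scale (exact permutation p = 0.2, adjusted p = 0.2).

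Il1r1, the signalling receptor, was the 1 gene of the 3 with a positive log2 fold change. Its probe A_51_P271503 had log2 ratios of 1.49, 1.85 and 2.20 in null cells, against 0.55, 0.96 and 0.77 in heterozygous cells. Every null value lay above every heterozygous value, and all 6 lay above the reference pool. The means were 1.85 ± 0.36 in null and 0.76 ± 0.21 in heterozygous cells (SD, n = 3 each). The log2 fold change was 1.09, with an SE of 0.22 and a 95% confidence interval from 0.55 to 1.62, and it did not pass (limma adjusted p = 0.0623). Array weights and left-out arrays aside, it passed in 2 of 8 other settings. These gave the arrays 1 spread (adjusted p = 0.0290) or quantile normalised them (adjusted p = 0.0372). It passed in none of the 6 fits with 1 array left out (adjusted p = 0.0619 to 0.205). In the authors' deposited table the signed fold changes were 2.13 for Il1r1, -5.54 and -3.08 for Il1r2 and -25.0 and -3.01 for Il1rn, where a negative sign means lower in null cells. Il1r1 thus lay just inside the limit of 2-fold, and its unadjusted p-value was 0.0102. The Il1r2 probe A_52_P417890 lay nearest to the limit of 0.05, with an unadjusted p-value of 0.0394.

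**Figure D1:**
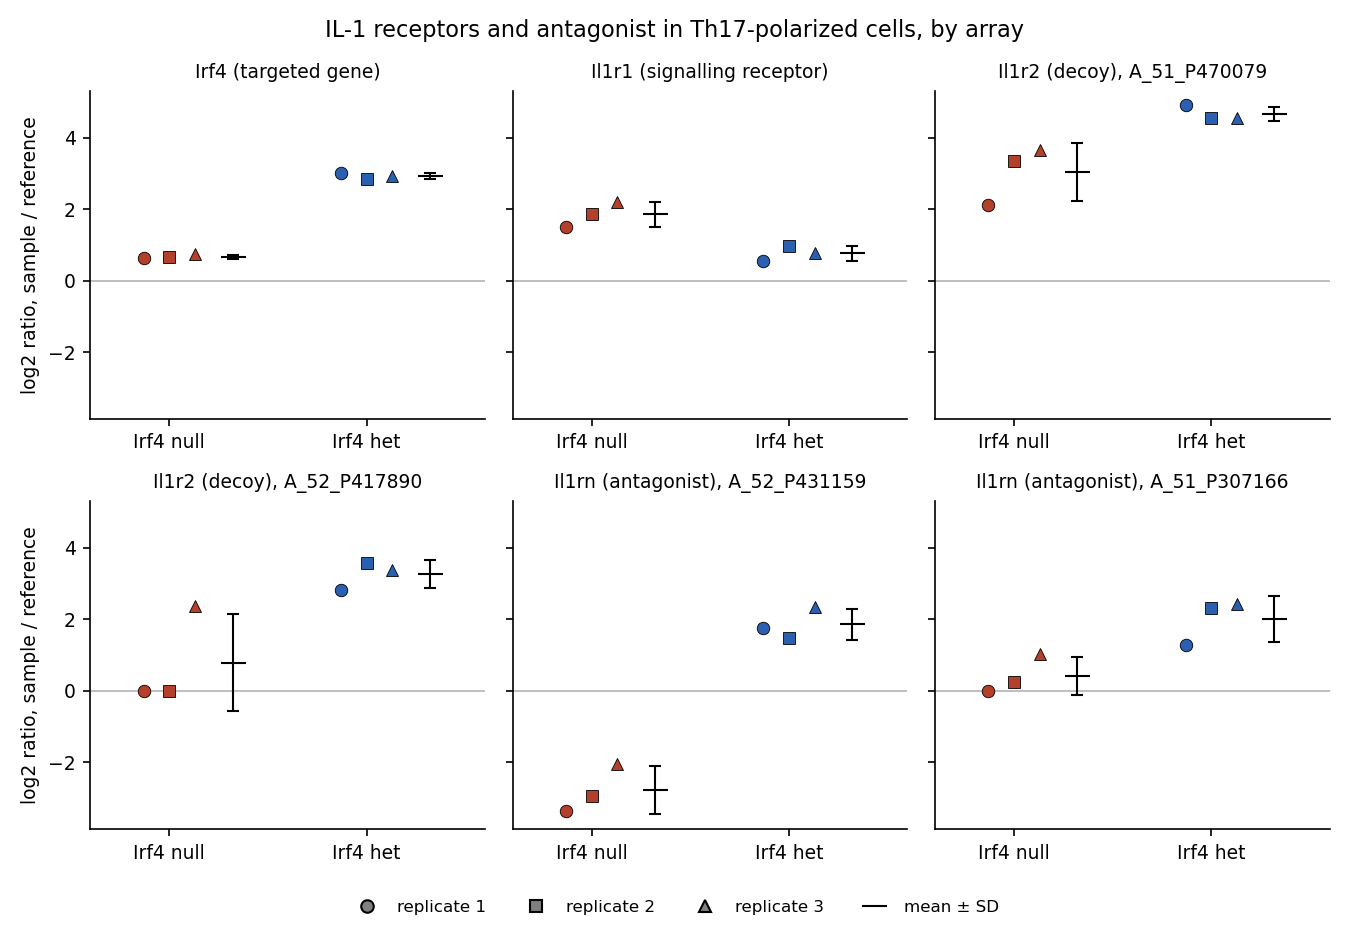
Log2 ratio of sample to reference pool (vertical axis) for Irf4 and the 5 probes of Il1r1, Il1r2 and Il1rn in Irf4 null and Irf4 heterozygous (het) cells. Points are single arrays with 1 marker shape per replicate number, and bars are the mean ± SD of 3 arrays. The Il1rn probe A_52_P431159 lies between -3.36 and -2.04 in null and between 1.49 and 2.34 in heterozygous cells, while Il1r1 is the 1 panel in which the null samples lie higher.

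The groups did not overlap at any of the 5 probes, which held for 30.2% of all probes, 17.7% with every null value below every heterozygous value and 12.4% with the reverse. These 5 were named for a difference between these same samples, so nothing is read from their lack of overlap. Among the null arrays, replicate 3 had the highest value at all 5 probes and replicate 1 the lowest or a tied lowest value, an order found at 31.6% of all probes. For Il1r2 and Il1rn the null sample nearest to the heterozygous samples was thus replicate 3, and for Il1r1 it was replicate 1. Leaving out null replicate 3 gave log2 fold changes of -5.01 for the Il1rn probe A_52_P431159 and 0.91 for Il1r1, and leaving out null replicate 1 gave -4.35 and 1.27.

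**Figure D2:**
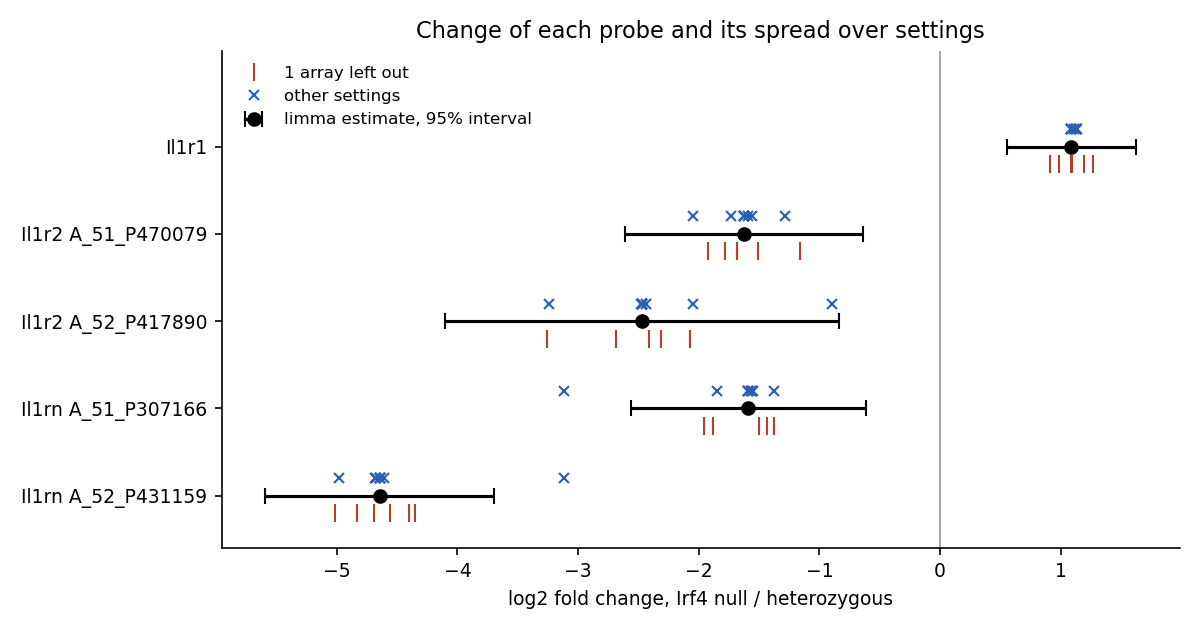
Log2 fold change of Irf4 null over heterozygous cells (horizontal axis) for each of the 5 probes. Black points and bars are limma estimates with 95% confidence intervals, red ticks are the 6 fits without 1 array and blue crosses are the other settings. The Il1rn probe A_52_P431159 stands at -4.64 and Il1r1 at 1.09. The cross at -0.90 for the Il1r2 probe A_52_P417890 is the fit with exact zeros as missing. For averaged probes, the cross of an Il1r2 or Il1rn probe is that of the gene's probe mean.

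The changes of the 3 genes were compared within each array, with the probes of a gene averaged. A ratio to a reference pool sets no gene's level against another's, so only the shift of each difference between genotypes is read. Il1r2 minus Il1r1 was -0.43, -0.18 and 0.80 in null cells, against 3.31, 3.10 and 3.19 in heterozygous cells. The heterozygous values lay within a narrow range and the null values far below it. This separation had to follow from the single probes, where every null value was lower for Il1r2 and higher for Il1r1. The means were 0.06 ± 0.65 in null and 3.20 ± 0.11 in heterozygous cells (SD, n = 3 each), a shift of -3.14 on the log2 scale, or 8.79-fold, of the decoy relative to the signalling receptor. The Il1r2 mean includes ratios of exactly 0 in null cells at probe A_52_P417890, and the shift with the other probe alone was not computed.

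Il1rn minus Il1r1 was -3.17, -3.19 and -2.71 in null cells, against 0.97, 0.94 and 1.62 in heterozygous cells. The groups did not overlap. The shift was -4.20 on the log2 scale, or 18.4-fold, of the antagonist relative to the signalling receptor. Il1rn minus Il1r2 was -2.74, -3.02 and -3.51 in null cells, against -2.34, -2.15 and -1.57 in heterozygous cells. Here the groups lay close together without overlapping. The values of null replicates 1 and 2 include exact zeros at the Il1r2 probe A_52_P417890. That of null replicate 1 also includes an exact zero at the Il1rn probe A_51_P307166, as it does in Il1rn minus Il1r1. The shift of Il1rn minus Il1r2 was -1.07 on the log2 scale, or 2.10-fold. With the Il1rn probe A_51_P307166 alone in place of the mean of both, an alternative chosen after seeing the data, this shift turned to 0.46 (exact permutation p = 0.4), and that against Il1r1 was -2.68. With A_52_P431159 alone they were -2.59 and -5.73. Each of the 3 shifts of probe means had a two-sided exact permutation p of 0.1, the smallest possible. After adjustment over the 5 differences it was 0.125, so none passed. The signs at the single probes were known when these differences were chosen. For both differences from Il1r1, the values at the single probes already fixed complete separation, and with it this p.

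**Figure D3:**
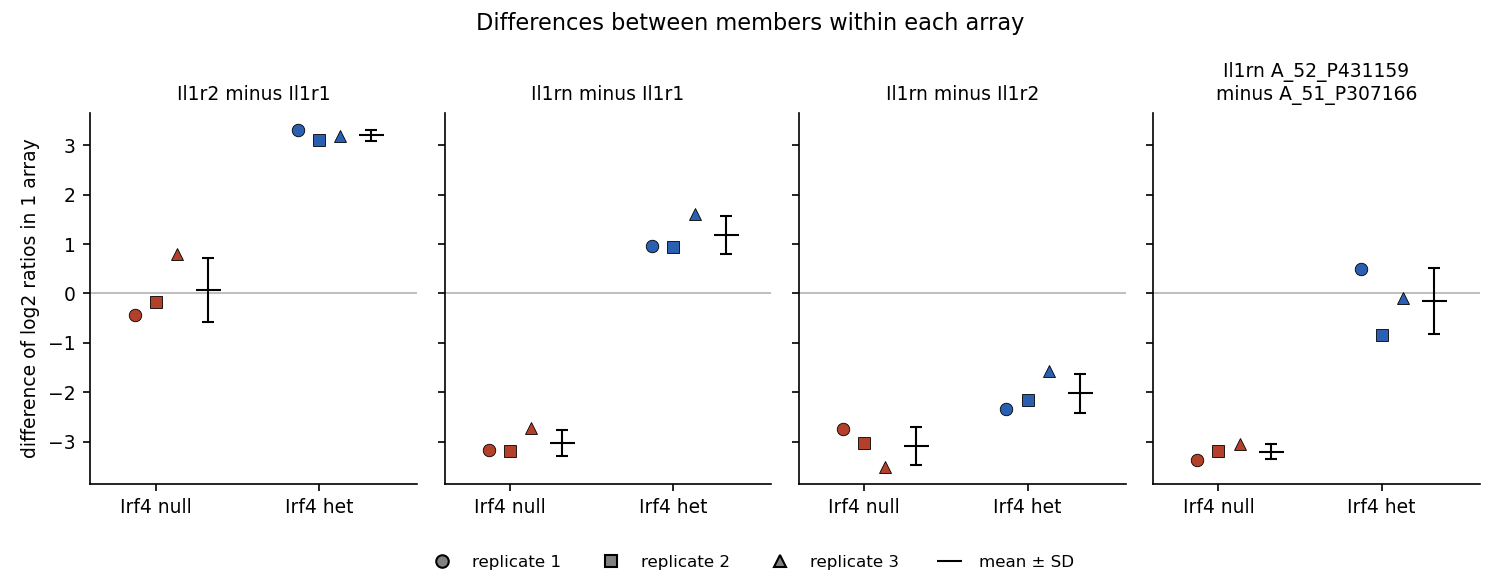
Difference of log2 ratios between members within 1 array (vertical axis) in Irf4 null and heterozygous (het) cells, with single arrays as points and the mean ± SD of 3 arrays as bars. Il1r2 minus Il1r1 averages 0.06 in null and 3.20 in heterozygous cells. The right panel sets the 2 Il1rn probes against each other, with means of -3.20 in null and -0.15 in heterozygous cells.

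Other genes of the pathway could be followed only where the authors had listed a probe. Of 13 interleukin 1 family ligands in the list, Il1rn was the 1 named gene, and of 11 receptors Il1r1 and Il1r2 were the 2 named. Il1a, Il1b, Il18, Il33, the accessory chain Il1rap and the other receptors had no named probe, so their levels are not known here. The same holds for the 12 genes of inflammasomes and cytokine maturation and for the 12 listed neighbours of the receptor loci and the 12 of the Il1rn locus.

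Of 27 genes of interleukin 1 signalling, 3 were named and all 3 had a probe past the threshold, with 1 higher and 2 lower in null cells. Of their 5 probes, 3 belonged to Peli2, and all 5 had been listed for a difference between these samples, so nothing is read from their number. Peli2 encodes a Pellino ubiquitin ligase that acts on IRAK kinases downstream of interleukin 1 and Toll-like receptors. Its probe A_51_P350666 had log2 ratios of -2.64, -1.74 and -1.72 in null cells, against 1.38, 1.49 and 1.62 in heterozygous cells. As at the Il1rn probe A_52_P431159, the null values lay below and the heterozygous values above the reference pool. Peli2 fell 11.5-fold at this probe and 7.18-fold at A_51_P367763, with limma adjusted p-values of 0.00603 and 0.00362. Its remaining probe A_52_P266033 had exact zeros in 2 null samples and a log2 fold change of -1.22 that did not pass (adjusted p = 0.0880). Both Peli2 probes that fell passed in all 6 fits with 1 array left out.

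Peli1, a Pellino ubiquitin ligase of the same family, had the opposite direction. Its log2 ratios were 2.47, 2.33 and 2.18 in null cells, against 1.03, 1.37 and 0.85 in heterozygous cells. Peli1 rose 2.37-fold, by 1.25 ± 0.18 (SE) on the log2 scale, with a limma adjusted p of 0.0261. Map3k8 encodes the kinase TPL2, which carries the signal to ERK, and had log2 ratios of 1.25, 1.41 and 1.64 in null cells, against 2.71, 2.28 and 2.88 in heterozygous cells. Map3k8 fell 2.28-fold (adjusted p = 0.0398), and did not pass with arrays centred on their medians (adjusted p = 0.0524) or given 1 spread (adjusted p = 0.0515). The groups did not overlap for either gene, and each passed in 1 of the 6 fits with 1 array left out.

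Of 19 NF-kappaB subunits, inhibitors and feedback genes, Tnfaip3, which encodes the inhibitor A20, was the 1 named. Its log2 ratios were -0.90, -0.88 and -0.87 in null cells, against 0.29, -0.10 and 0.42 in heterozygous cells. The null values lay close together below the heterozygous ones, and Tnfaip3 fell 2.12-fold (limma adjusted p = 0.0312, passing in 1 of 6 fits with 1 array left out). These 4 genes were listed by the authors for a difference between the same samples, so their directions are not independent evidence.

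**Figure D4:**
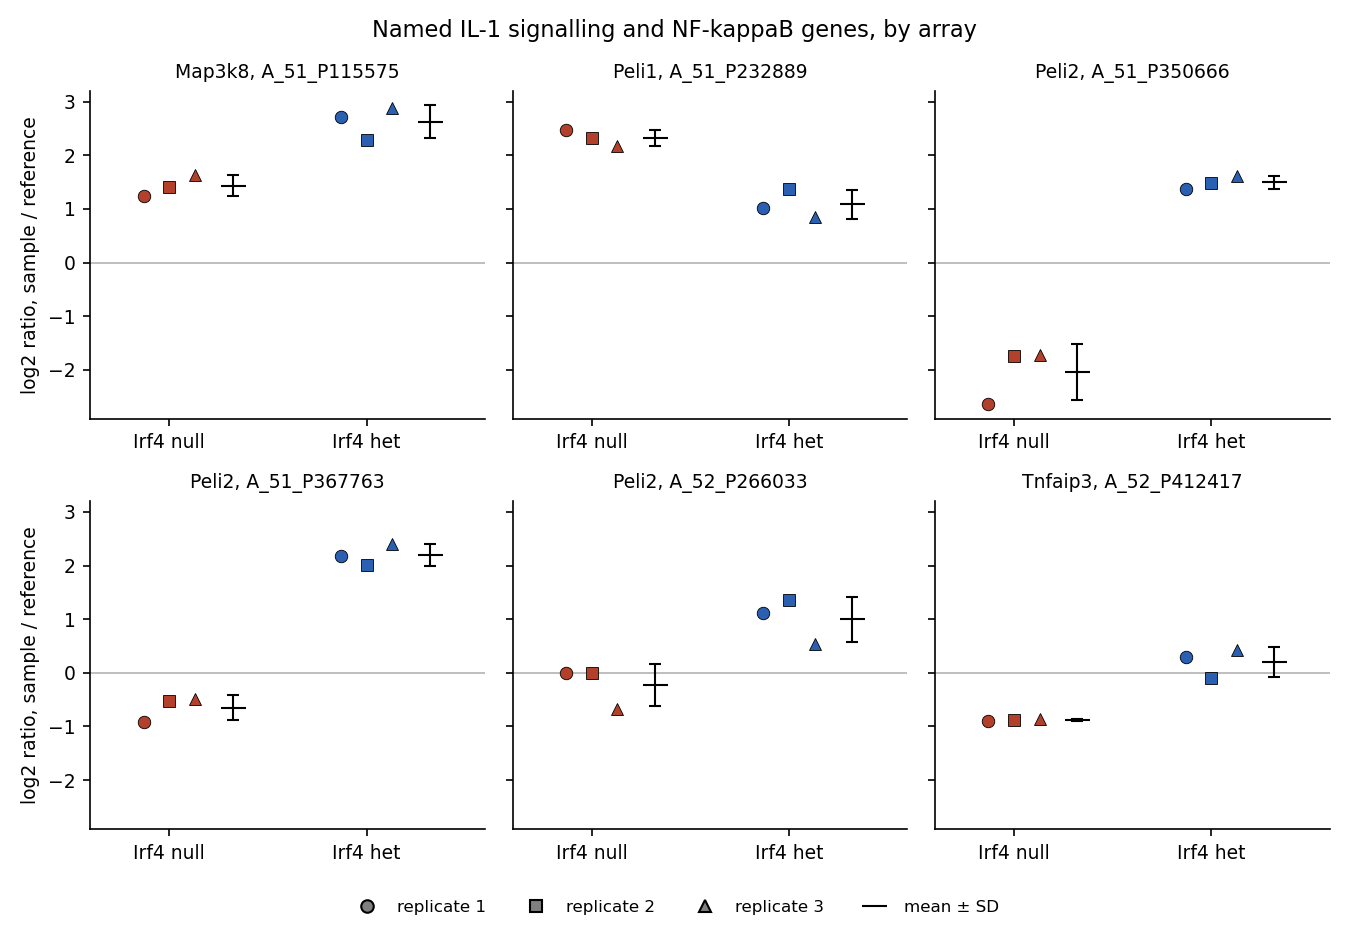
Log2 ratio of sample to reference pool (vertical axis) for the 6 named probes of interleukin 1 signalling and NF-kappaB genes in Irf4 null and heterozygous (het) cells. Points are single arrays and bars the mean ± SD of 3 arrays. All 3 Peli2 probes, Map3k8 and Tnfaip3 lie lower in null cells and Peli1 lies higher, with the Peli2 probe A_51_P350666 at -2.03 in null and 1.49 in heterozygous cells on average.

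Il1r1 was 1 of 12 named genes in a list of 26 genes of the Th17 programme. Of these 12, 8 had a probe that fell, among them Irf4 itself, none had a probe that rose, and 4 had no probe past the threshold. By probe, 11 of their 16 fell and 5 did not pass, where 58.5% of all listed probes passed in either direction. All 16 had been listed for a difference between these samples, so nothing is read from these numbers. The number of genes that fell was 8, 4 and 9 without null replicates 1, 2 and 3 in turn. It was 4, 6 and 3 without heterozygous replicates 1, 2 and 3, the last of which left Il10, Il12rb1 and Irf4. Il1r1 was the only 1 of the 12 with a positive log2 fold change. The genes nearest to it in role, Il23r and Il12rb1, which encode the IL-23 receptor and the chain it shares with the IL-12 receptor, both had lower means in null cells. Il23r had a log2 fold change of -1.59 that did not pass (limma adjusted p = 0.124), and Il12rb1 fell 4.01-fold (adjusted p = 0.00645).

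The named genes whose values over the 6 arrays were most like those of each member were found by the root mean square difference of log2 ratios, after each gene was centred on its own mean. This describes 6 samples that share 1 contrast, and all 686 genes compared had been listed for that contrast. For Il1r1 the nearest were Fxyd6 at 0.06, Ppip5k2 (listed as Hisppd1) at 0.09, Trib2 at 0.10 and Evpl at 0.11, against a median of 1.10 over all 686. For Il1r2 they were Il2 at 0.31, Gcnt2 at 0.33, Rragd at 0.34 and Fcmr (listed as Faim3) at 0.34. For Il1rn they were Hemgn at 0.19, Tgm2 at 0.27, Kynu at 0.29 and B3gnt8 at 0.32. Il1r2 and Il1rn differed by 0.62 from each other, and by 1.61 and 2.12 from Il1r1.

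**Figure D5:**
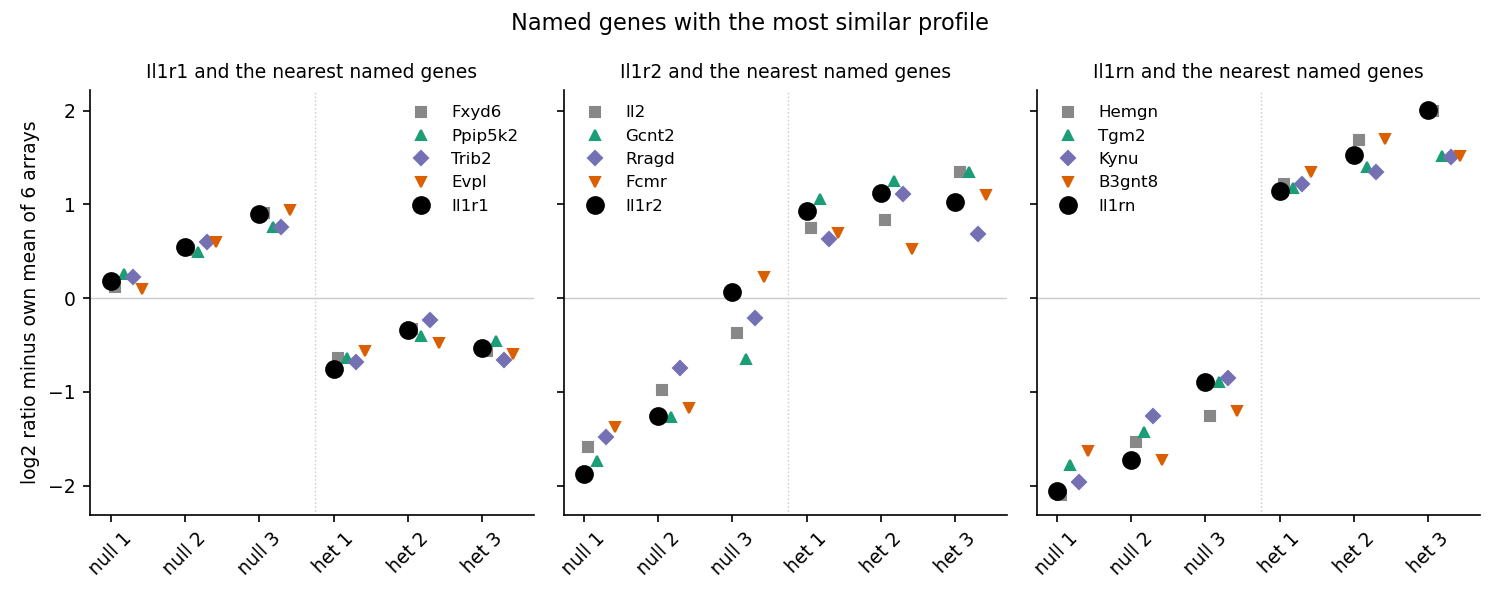
Log2 ratios minus each gene's own mean over the 6 arrays (vertical axis) for Il1r1, Il1r2 and Il1rn (black) and the 4 named genes closest to each (colours), with null arrays left and heterozygous (het) arrays right of the dotted line. The genes closest to Il1r1 lie within 0.11 of it as a root mean square difference, and those closest to Il1r2 within 0.34.

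Il1r2 and Il1rn are also expressed by myeloid cells, and Il1r2 by activated regulatory T cells. In these bulk cultures, fewer cells of a type and less RNA per cell cannot be told apart. Of 17 monocyte, macrophage and granulocyte markers, Ms4a6d was the 1 named, and it rose at both probes, 14.8-fold and 8.19-fold. Its first probe had log2 ratios of 1.07, 0.59 and 0.14 in null cells, against -3.20, -3.73 and -2.93 in heterozygous cells. The defining markers Lyz2, S100a8, S100a9 and Csf1r had no named probe. Of 13 regulatory T cell markers 6 were named, of which Nt5e rose at 1 of 2 probes, Nrp1 rose at 2 of 3, and Ebi3 and Ikzf2 fell. Ctla4, with a log2 fold change of -3.47, and Tnfrsf9, with 1.73, did not pass (limma adjusted p = 0.0565 and 0.111). Foxp3 and Il2ra had no named probe. The part of such cells in the differences of Il1r2 and Il1rn was not tested. Of 17 T cell markers 3 were named, Cd247, Cd28 and Gata3, so the labelled cell type could not be checked against Cd4 or the Cd3 genes. Gata3 rose, with a log2 fold change of 1.51 (limma adjusted p = 0.0100). Cd247 and Cd28, at -2.28 and -1.23, did not pass (adjusted p = 0.0926 and 0.139). Named markers of other cells numbered 2 of 11 for B cells and plasma cells, 3 of 12 for dendritic cells and MHC class II and 5 of 12 for CD8 T cells and NK cells, with 1 gene higher and 1 lower past the threshold in each. Among the dendritic cell and MHC class II genes, Cd86 fell at both probes, with log2 fold changes of -2.52 and -2.38 (limma adjusted p = 0.0209 and 0.0261). H2-DMb1 rose by 1.23 (adjusted p = 0.0103), and Itgax, at -1.32, did not pass (adjusted p = 0.116). Of the 5 genes of CD8 T cells and NK cells, 4 had higher means in null cells, with log2 fold changes of 1.79 and 2.83 for the probes of Nkg7, 2.36 for Prf1, 1.41 for Eomes and 1.29 for Cd8a. Of these only the second Nkg7 probe passed (limma adjusted p = 0.0189), and Klre1 was lower at -3.57 (adjusted p = 0.0333). Their part in the differences of the members was not tested.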

How the data were processed

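Each array's values are, per the labels, log2 ratios of Cy5 sample over Cy3 reference, with no dye swap. The deposited log2 ratios are called normalized in the authors' header, and Agilent Feature Extraction 10.7 and Partek are named in the submitters' processing notes. The normalization method is not known here, and intensities were not analysed here, so dim probes were kept. The log base and the direction between genotypes were read from the data, where null minus heterozygous means equalled the log2 deposited fold changes to within 1.03e-05 at the 828 listed probes. Those fold changes, read as signed scores, and p-values come, per the file headers, from a 1-way comparison in Partek Genomic Suite 6.6. Symbols were updated through RefSeq names (GRCm38.p6).

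Null and heterozygous samples were compared probe by probe over all 22749 probes with limma 3.58.1 in R 4.3.3, with no covariates and Benjamini-Hochberg adjustment. The threshold was an adjusted p of 0.05. This fit was first tested on simulated data. Groups came from sample titles. The free-text description of heterozygous replicate 3 is ambiguous, and its title and genotype field are not. Members, lists and tests were chosen with earlier results of these data known. Named are Irf4, the members, listed pathway genes, cell markers and, by rule, the 4 nearest genes per member. Cell markers, the example Il23r with Il12rb1, and the comparison of probes of 1 gene were picked after values were seen. Protein sequences were not used here. Alternatives were centring, quantile normalization, scaling, zeros as missing, robust variances, array weights, averaged probes, the methods' t-test, the replicate block and leaving out arrays.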

Additional observations from a re-analysis of the deposited data

How the results depend on the processing

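No log2 fold change of Irf4 or the 5 member probes, and no within-array difference other than Il1rn minus Il1r2, changed sign under any alternative run, though groups that do not overlap cannot turn when an array is left out. Array weights and left-out arrays aside, the Il1rn probe A_52_P431159 passed in every setting that kept the Il1rn probes apart. Its log2 fold changes there were -4.69 to -4.61, with adjusted p-values of 0.00679 to 0.0345. Irf4 passed in 8 of 8 settings other than array weights and left-out arrays. With the Il1rn probe A_51_P307166 alone, Il1rn minus Il1r2 turned to 0.46 and Il1rn minus Il1r1 was -2.68, against -2.59 and -5.73 with A_52_P431159 alone. Il1r1 passed with quantile normalization and with scaling (log2 fold change 1.13 in each). The average of both Il1rn probes passed at -3.12, which is not a result of either probe alone. With array weights, null replicate 2 received a weight of 41.9, 9568 probes passed, and so did Il1r1 (1.11), Il1r2 A_51_P470079 (-1.29), Il1r2 A_52_P417890 (-3.24) and Il1rn A_51_P307166 (-1.85). The cause of these shifts was not tested.

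In all, 725 probes passed (370 higher, 355 lower), and an unadjusted p under 0.05 was found for 4731. The number was 70 to 398 with 1 array left out and 484 with a fold change of at least 2. Centring gave 372 higher and 253 lower, quantile normalization gave 368 higher and 268 lower, and scaling gave 305 higher and 203 lower. With 1 array left out, log2 fold changes ranged from -3.26 to -2.08 for Il1r2 A_52_P417890, -1.93 to -1.16 for Il1r2 A_51_P470079, -1.96 to -1.38 for Il1rn A_51_P307166 and 0.91 to 1.27 for Il1r1.

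With the replicate block, 76 probes passed, the Il1rn probe A_52_P431159 kept -4.64 with an adjusted p of 0.0319, and no member probe changed its side of the threshold, while Il12rb1, Map3k8, Peli1 and Tnfaip3 had adjusted p-values of 0.0628, 0.105, 0.0967 and 0.109. Of the Th17 programme list, 3 named genes fell under the block (Il9, Irf4 and Tnfrsf13b), against 8 without it. Map3k8, Peli1 and Tnfaip3 also did not pass the methods' t-test after adjustment. Null and heterozygous samples of 1 number had deviations from their group means that correlated at 0.10, -0.01 and -0.04, and 4 of the 6 samples were closer to another number than to their own, so the numbers were not treated as pairs.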
